A study of Mus musculus with 65 samples.

Results

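The sites described here are the autosomal CTCF peaks of wild-type mouse testis that carried a HORMAD1 peak, no IHO1 peak and no DMC1 hotspot. The members were chosen by measured values, the wild-type peak calls. Of the 32676 peaks in the wild-type CTCF list, 31785 lay on chromosomes 1 to 19, and 344 of these met the rule with an overlap of at least 1 bp. They are called IHO1-lacking HORMAD1 sites below, a name that says nothing of SYCP3 or other proteins. The presence of HORMAD1 and the absence of IHO1 and DMC1 in the wild type are therefore their definition and not a result. Lacking IHO1 means that the list holds no IHO1 peak there, since the lists give positions and no signal below the caller's threshold. A further 248 CTCF sites away from hotspots carried both HORMAD1 and IHO1 in the wild type and serve as the nearest comparison. The remaining background is all 30630 autosomal CTCF sites away from hotspots, of which 29869 had neither protein and 169 had IHO1 without HORMAD1.

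In early meiotic prophase the chromosomes fold into loops anchored on a protein axis. HORMAD1 is a HORMA-domain protein that sits on axes before the homologues synapse and brings in IHO1, and SYCP3 is a structural filament protein of the same axis. IHO1 and MEI4 belong to the machinery that lets SPO11 cut DNA, and DMC1 is the recombinase that coats the resulting single strands. PRDM9 is the methyltransferase whose zinc fingers set where most of these breaks fall in mice. CTCF is a zinc-finger protein that stops cohesin-driven loop extrusion and marks many loop anchors, and cohesin also builds the meiotic axis.

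Binding of these proteins was mapped by ChIP-seq in whole testes. From an age of 1.5 days, male pups were fed WIN 18,466 for 7 to 10 days, which blocks retinoic acid and so holds back meiosis, and were then injected with retinoic acid. All groups used here shared this synchronisation, with testes taken 8 days after the injection and an enrichment for leptotene and zygotene spermatocytes stated as 80 to 95%. The groups were wild-type C57BL/6JCrl, B6;129P2-Prdm9tm1Ymat/J (Prdm9KO), Spo11tm1Mjn (Spo11KO), Mei4tm1Bdm (Mei4KO), Iho1tm1.2Atot (Iho1KO) and Hormad1tm1.2Atot (Hormad1KO). The alleles are carried by the whole animal, so other testis cells carry them too. Each antibody and genotype had 2 samples, except SYCP3 in Prdm9KO, Spo11KO and Iho1KO with 1 sample each, and each has 1 peak list. No difference between genotypes therefore has a replicate check. Shares below carry Wilson 95% intervals and differences of shares carry Newcombe 95% intervals. A difference is called where its interval excludes 0. The intervals cover counting error only and treat sites as independent. In whole testis, fewer cells at the stage that binds a protein and less protein bound per cell cannot be told apart.

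The rule left clear margins at most sites. Overlap between the CTCF peak and its HORMAD1 peak had a median of 1720 bp, and at 339 sites it covered at least 50% of the shorter interval. The smallest overlap, 49 bp, was at chr9:35016336-35021039 in the body of Kirrel3, a cell-adhesion gene. No peak of any of the 20 other lists touched that site. Just outside the rule, the CTCF peak at chr11:70603971-70606753 missed a HORMAD1 peak by 67 bp. The member closest to IHO1, at chr12:16639143-16640647 in the phosphatidate phosphatase gene Lpin1, lay 241 bp from an IHO1 peak. The smallest IHO1 overlap that excluded a site was 497 bp, at chr10:18759795-18761085. Most members were far from both margins, with a median distance of 443 kb to the nearest wild-type IHO1 peak and 53.2 kb to the nearest hotspot. At the 248 sites with both proteins the median distance to a hotspot was 49.3 kb. The 344 sites lay in 341 distinct HORMAD1 peaks, of which 4 reached an IHO1 peak elsewhere and 5 reached a hotspot elsewhere.

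A few of the sites lie at promoters, where the sequence can be read. Of the 337 members on chromosomes covered by the RefSeq promoter table (GRCm38.p6), 41 crossed a promoter window of 250 bases before and 50 after a start, 53 windows in all. The letters CCNNNAGGNGGC, the core of the CTCF consensus, were searched on both strands. They occurred in 6 of the 53 windows (11.3%, interval 5.29 to 22.6%). The share was 7.14% (3 of 42) at sites with HORMAD1 and IHO1, 8.03% (293 of 3649) at sites with neither, and 3.43% (1126) of all 32851 windows. With the shorter requirement CCNNNAGNNGGC, which includes every match of the first, the shares were 18.9, 11.9, 15.7 and 8.61% in the same order. The intervals of the first 3 classes overlapped for either motif. A match is a description of the letters in the window and does not show where CTCF bound. The 6 windows hold 5 places, since 2 windows of Pdzd9 overlap. They are shown because a CTCF core can be read there beside the protein record of the site. Each is printed 5′ to 3′ on the strand of the match, with the matched core in capitals.

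Gm33327, chr5:106802573-106802602, minus strand: ctgatcctaCCGGCAGGTGGCgccgcgttg

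Pdzd9, chr7:120670328-120670357, plus strand: ttcgaatggCCACCAGGGGGCgctgcaagg

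Gm30470, chr11:79224608-79224637, plus strand: tccccatggCCACTAGGGGGCagtgctgca

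Gm41121, chr14:30951602-30951631, minus strand: gggcatgttCCCGAAGGAGGCctacagtcg

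Dgcr6, chr16:18052802-18052831, plus strand: tagaaatgtCCGCCAGGGGGCgcgcaacca

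All 5 places lay in CTCF sites whose HORMAD1 peak was present in all 4 knockout lists. The same held for 100 of all 344 members (29.1%). With 5 places, and no comparison with promoter members lacking the core, a link between core and HORMAD1 was not tested. The sites at Gm33327 and Pdzd9 gained IHO1 in Mei4KO, and those at Gm30470, Gm41121 and Dgcr6 had IHO1 in none of the knockouts. CTCF scores of the 5 sites were 9.28 at Gm33327, 4.95 at Gm30470, 4.07 at Pdzd9, 3.92 at Dgcr6 and 1.77 at Gm41121. Of the 5, only the Gm41121 site had SYCP3, in Spo11KO and Iho1KO. The 250 bases before the start are given for 1 site that gained IHO1 and 1 that did not, on the strand of the gene, with the core in capitals. At Gm33327 the core reads on the opposite strand, and its first printed base lies 92 bases before the start. At Dgcr6 it reads on the gene's strand and begins 49 bases before the start.

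Gm33327, chr5:106802424-106802673, plus strand: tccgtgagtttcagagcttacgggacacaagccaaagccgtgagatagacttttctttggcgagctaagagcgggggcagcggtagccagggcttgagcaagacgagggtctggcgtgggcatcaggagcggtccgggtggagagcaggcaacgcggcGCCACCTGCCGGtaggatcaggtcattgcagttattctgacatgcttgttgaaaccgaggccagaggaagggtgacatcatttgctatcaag

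Dgcr6, chr16:18052610-18052859, plus strand: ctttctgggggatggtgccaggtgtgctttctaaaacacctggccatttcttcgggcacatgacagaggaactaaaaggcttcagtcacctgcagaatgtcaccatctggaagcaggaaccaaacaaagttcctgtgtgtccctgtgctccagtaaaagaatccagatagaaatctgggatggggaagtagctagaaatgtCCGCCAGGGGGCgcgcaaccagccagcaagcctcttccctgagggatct

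IHO1-lacking HORMAD1 sites were among the stronger CTCF peaks. Their median deposited CTCF score was 3.95 (interval 3.76 to 4.17), with quartiles at 3.07 and 4.96. The score is the authors' own value per peak. Its scale is not given in the sources used here, so it serves only to rank sites within the list. Sites with both proteins had a median of 4.11 (3.94 to 4.37), and the 2 intervals overlapped. The 169 sites with IHO1 alone had a median of 3.22 (3.0 to 3.52), and sites with neither protein 1.88 (1.86 to 1.90). The 90th percentile of all CTCF sites away from hotspots, 3.88, was reached by 180 members (52.3%), and the 99th, 5.93, by 33 (9.59%). At the low end, 30 members fell short of the overall median, since 314 (91.3%) reached 1.91. CTCF peaks at members were also broad, with a median width of 3154 bp against 3068 bp at sites with both proteins and 1543 bp at sites with neither.

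**Figure D1:**
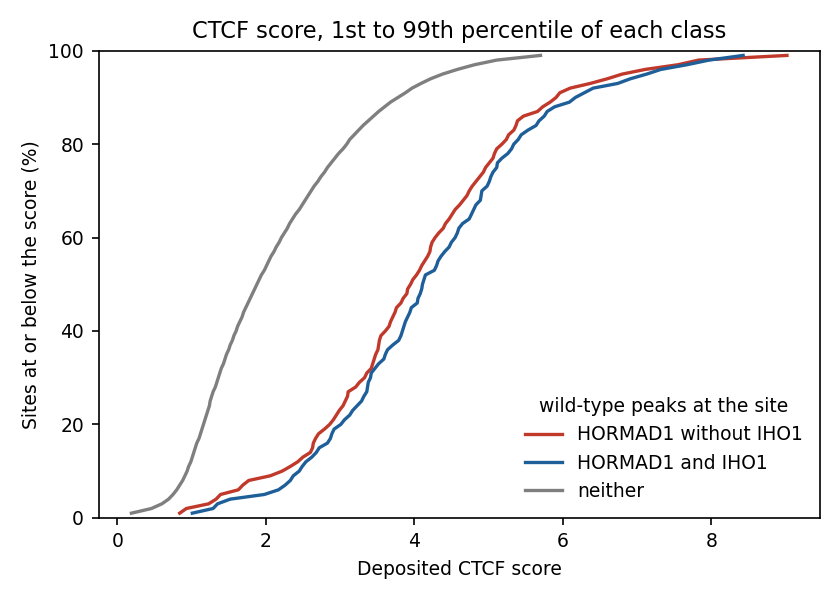
Cumulative share of CTCF sites (%, vertical axis) at or below a deposited CTCF score (horizontal axis), drawn from the 1st to the 99th percentile for IHO1-lacking HORMAD1 sites (n = 344), sites with HORMAD1 and IHO1 (n = 248) and sites with neither (n = 29869). Curves of both HORMAD1 classes run close together, with medians of 3.95 and 4.11, to the right of the sites with neither at 1.88.

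Because wide, strong CTCF peaks have more room to overlap any list, a second background was drawn after the data were seen. It holds the 579 sites with neither protein whose score and width were both at or above the members' medians. It was set beside all members, including those below these medians, and so is not matched to them in score or width. The shares in that background stand beside the members' shares below.

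HORMAD1 stayed listed at most of these sites when other genes were lost, and the share differed between knockouts. In Iho1KO, which lacks the partner that binds HORMAD1, 288 of 344 members (83.7%, interval 79.5 to 87.2%) still had a HORMAD1 peak, against a background of 6.26% of all CTCF sites. In Spo11KO, which makes no programmed breaks, 280 members (81.4%, 76.9 to 85.2%) had one, with a background of 4.63%. In Mei4KO 203 members (59.0%, 53.7 to 64.1%) did, with a background of 10.6%, and in Prdm9KO 191 (55.5%, 50.2 to 60.7%), with a background of 1.95%. The strong and wide sites with neither protein had shares of 34.7% in Iho1KO, 26.1% in Spo11KO, 50.9% in Mei4KO and 6.56% in Prdm9KO. In Mei4KO the members were 8.06 points above those sites (1.41 to 14.6), against 49.0 to 55.3 points in the other 3 knockouts. Among members, the Mei4KO share was 72.1% at the 86 narrowest CTCF peaks and 41.9% at the 86 widest. It was 57.0% at the 86 lowest-scoring and 66.3% at the 86 highest-scoring. The part of width and score in the differences from the strong and wide sites, which are not matched to the members, was not tested. Members were chosen by a wild-type HORMAD1 peak and those sites by its absence. That members lie above them, and above the background, therefore follows from the choice of sites and is given as a description. The HORMAD1 lists differed in length, with 1009 peaks in Prdm9KO, 2897 in Spo11KO, 3149 in Iho1KO, 5275 in Mei4KO and 1715 in the wild type. The part of list length in the differences between knockouts was not tested.

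Compared with sites that also had IHO1 in the wild type, IHO1-lacking HORMAD1 sites kept HORMAD1 less often in Prdm9KO, 55.5 against 73.0%, a difference of -17.5 points (-24.8 to -9.66). The gap held in the narrower HORMAD1 peaks (-13.2 points) and in the wider ones (-23.4), and in the lower (-15.7) and higher (-16.9) CTCF scores. In the other knockouts no difference was called over all sites. The differences were -4.89 points in Spo11KO (-10.7 to 1.23), 0.141 in Mei4KO (-7.80 to 8.16) and 0.656 in Iho1KO (-5.30 to 6.91). With the wider 50% of each list, differences of -18.6 points in Spo11KO and -11.9 in Iho1KO were called, and within the higher CTCF scores the one in Iho1KO was called at 6.93 points. In Spo11KO it was also called among the wider HORMAD1 peaks, at -11.9 points.

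**Figure D2:**
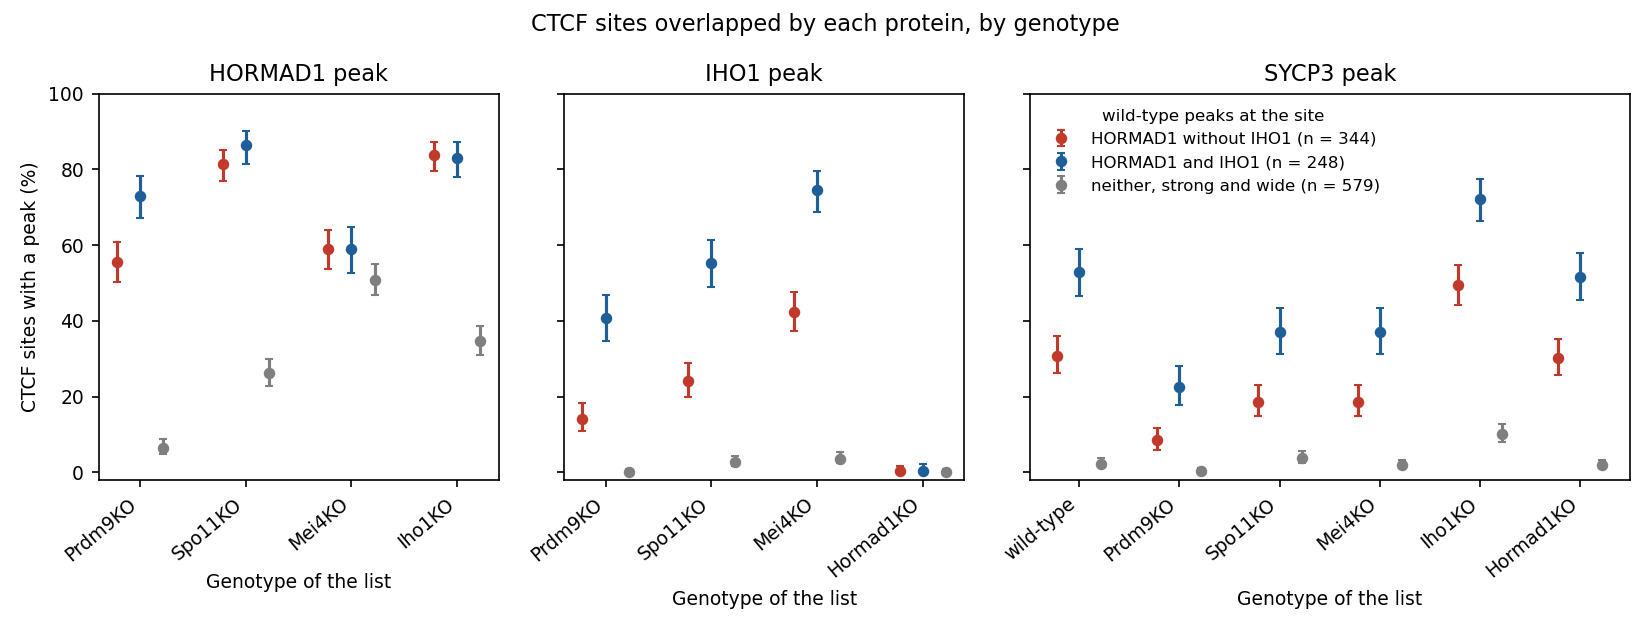
Share of CTCF sites with a peak (%, vertical axis) in each HORMAD1, IHO1 and SYCP3 list (horizontal axis, genotype) for IHO1-lacking HORMAD1 sites, sites with HORMAD1 and IHO1, and strong and wide sites with neither. Points are shares and bars are Wilson 95% intervals. For HORMAD1, members lie below the sites with HORMAD1 and IHO1 by a called difference in Prdm9KO alone. For the other proteins they lie below those sites in IHO1 in Prdm9KO, Spo11KO and Mei4KO and in all 6 SYCP3 lists.

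Single members combined the 4 knockouts in different ways. HORMAD1 was listed in all 4 at 100 members (29.1%), in 3 at 131 (38.1%), in 2 at 73 (21.2%), in 1 at 23 (6.69%) and in none at 17 (4.94%). The most frequent partial sets were Prdm9KO with Spo11KO and Iho1KO without Mei4KO, at 63 members, and Spo11KO with Mei4KO and Iho1KO without Prdm9KO, at 56. All lists of a protein share the same subtracted control, its own knockout, so peaks shared between them are given as a description. Members with a higher CTCF score kept HORMAD1 more often in 3 of the 4 knockouts. From the 86 lowest-scoring to the 86 highest-scoring members, the share went from 60.5 to 95.3% in Iho1KO, a difference of 34.9 points (23.1 to 45.8). It went from 39.5 to 69.8% in Prdm9KO (30.2 points, 15.4 to 43.2) and from 67.4 to 86.0% in Spo11KO (18.6 points, 5.99 to 30.6). In Mei4KO these groups had 57.0 and 66.3%, a difference that was not called (9.30 points, -5.16 to 23.2). The 86 members with the widest wild-type HORMAD1 peaks, 2753 bp or more, had lower shares than the 86 with the narrowest, 1442 bp or less, in all 4 knockouts, by 16.3 points in Prdm9KO and Mei4KO, 18.6 in Iho1KO and 20.9 in Spo11KO.

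The width of HORMAD1 peaks set Mei4KO apart. In the wild type the 341 distinct peaks at members had a median width of 1853 bp (1733 to 2009), narrower than the 2278 bp (2102 to 2416) at sites with both proteins. In Mei4KO the peaks at members had a median of 3392 bp (3093 to 3933), against 1736 bp in Prdm9KO, 1592 bp in Spo11KO and 1714 bp in Iho1KO. Taken site by site, 193 of the 203 members with a peak in both lists (95.1%, 91.2 to 97.3%) had a wider peak in Mei4KO than in the wild type. The share of wider peaks was 43.5% in Prdm9KO, 37.1% in Spo11KO and 46.5% in Iho1KO. Sites with both proteins had 127 of 146 peaks (87.0%) wider in Mei4KO. Peaks of the whole Mei4KO list had a median width of 2580 bp against 2641 bp in the whole wild-type list. Centres of the Mei4KO peaks lay a median of 329 bp from the CTCF centre, close to the 322 bp of the wild-type peaks.

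**Figure D3:**
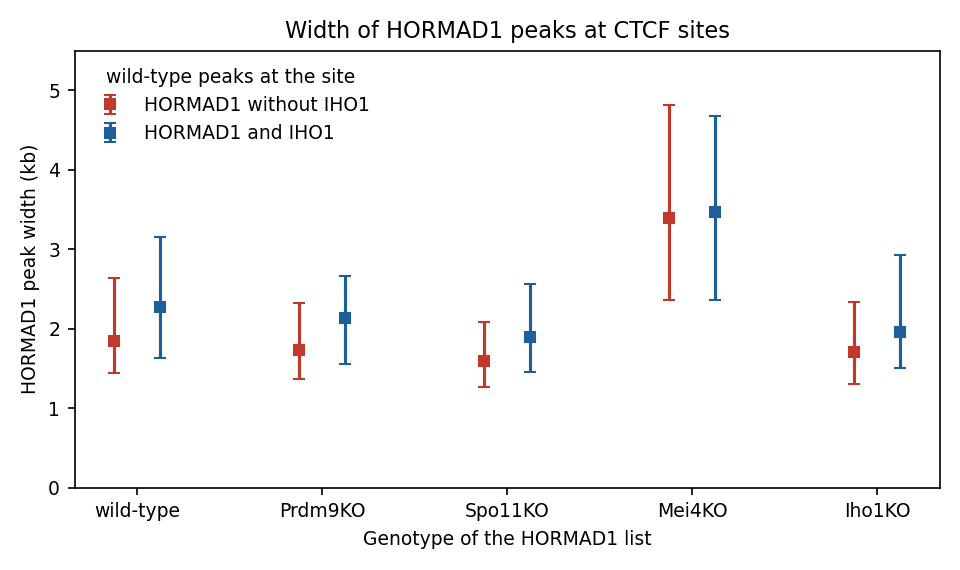
Width of the distinct HORMAD1 peaks (kb, vertical axis) at IHO1-lacking HORMAD1 sites and at CTCF sites with HORMAD1 and IHO1, by genotype of the list. Squares are medians and bars run from the lower to the upper quartile. Peaks at members had medians of 1592 to 1853 bp in 4 genotypes and 3392 bp in Mei4KO.

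IHO1, absent from these sites in the wild type by the rule, was listed at 175 of the 344 members (50.9%) in at least 1 knockout. The same held for 2.36% of all CTCF sites, 1.43% of those without IHO1 in the wild type, and 213 of the 248 sites with both proteins (85.9%). Mei4KO accounted for most, with 146 members (42.4%, interval 37.3 to 47.7%), where 1.85% of all CTCF sites and 1.05% of those without IHO1 in the wild type had an IHO1 peak. Spo11KO followed with 83 members (24.1%, 19.9 to 28.9%), against backgrounds of 1.19% and 0.622%. Prdm9KO had 49 (14.2%, 10.9 to 18.3%), against 0.669% and 0.235%. In Hormad1KO, which lacks the protein that recruits IHO1, 1 member had an IHO1 peak (0.291%, 0.0513 to 1.63%), against 0.0555% and 0.0430%. The strong and wide sites with neither protein had 3.63% in Mei4KO, 2.76% in Spo11KO, and 1 of 579 sites (0.173%) in each of Prdm9KO and Hormad1KO.

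The Mei4KO list held 1036 IHO1 peaks against 1589 in the wild type. It touched 568 autosomal CTCF sites away from hotspots, against 417 for the wild-type list. The part of list length in the gains and losses was not tested. Over all 592 CTCF sites with HORMAD1 away from hotspots, IHO1 in Mei4KO was gained at 146 and no longer listed at 63 of the 248, which left 331 sites (55.9%). In Spo11KO, with 2681 peaks, 83 were gained and 111 lost, which left 220 sites. In Prdm9KO, with 378 peaks, 49 were gained and 147 lost, which left 150. In Hormad1KO, with 1860 peaks, 1 was gained and 247 were lost, which left 2 sites. Mei4KO was the knockout in which gains outnumbered losses. The 248 sites with both proteins had higher shares than members in 3 knockouts. Those classes were split on wild-type IHO1, so this direction is not independent of the choice of sites and is given as a description. The differences were -32.2 points in Mei4KO (74.6% against 42.4%, -39.3 to -24.3), -31.1 in Spo11KO (55.2% against 24.1%, -38.5 to -23.3) and -26.5 in Prdm9KO (40.7% against 14.2%, -33.5 to -19.3). In Hormad1KO the shares were 0.403 and 0.291%. The 169 sites with wild-type IHO1 and no HORMAD1 did not share this direction throughout. Their IHO1 shares were 38.5% in Mei4KO and 23.1% in Spo11KO, below those of members, and 19.5% in Prdm9KO, above.

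Among the members, 66 had IHO1 in Mei4KO alone, 39 in Spo11KO and Mei4KO, 22 in Prdm9KO, Spo11KO and Mei4KO, 20 in Spo11KO alone and 19 in Prdm9KO and Mei4KO. The rest of the 175 had it in Prdm9KO alone (6), in Prdm9KO and Spo11KO (2) or in Hormad1KO alone (1). The gained peaks were ordinary in size, with median widths of 1746 bp in Mei4KO, 1766 bp in Spo11KO and 1987 bp in Prdm9KO. Their centres lay a median of 276, 307 and 310 bp from the CTCF centre, where HORMAD1 centres of the same knockouts lay at 329, 284 and 231 bp.

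**Figure D4:**
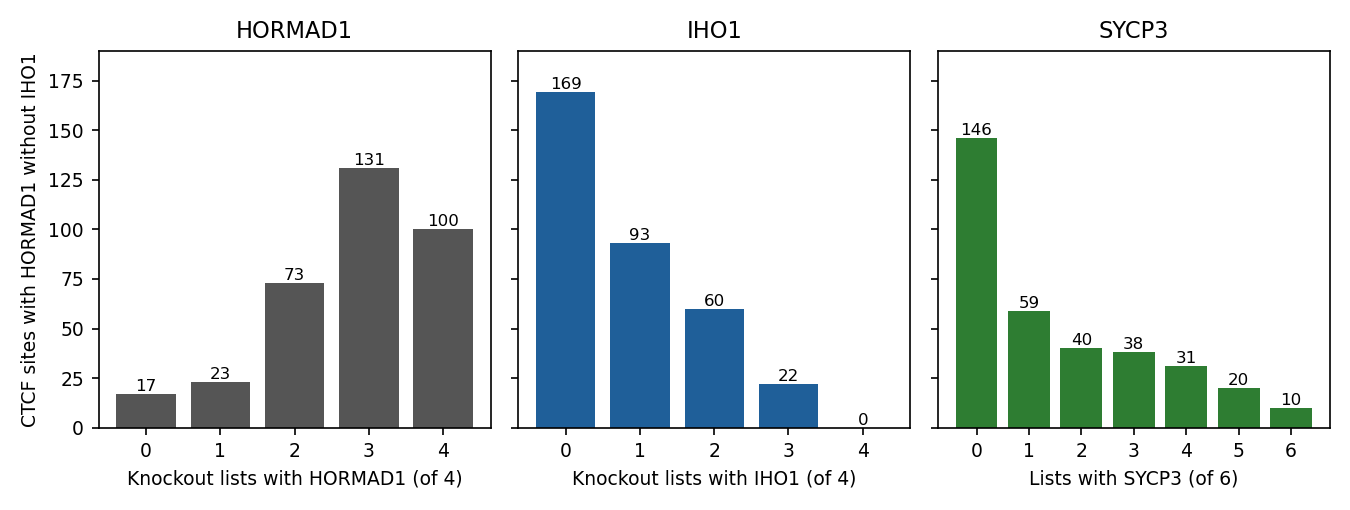
Number of IHO1-lacking HORMAD1 sites (vertical axis) by how many lists of a protein overlapped them (horizontal axis): HORMAD1 in 4 knockouts, IHO1 in 4 knockouts, and SYCP3 in the wild type and 5 knockouts. HORMAD1 was listed in 3 or 4 knockouts at most sites, while 169 sites had IHO1 in none and 146 had SYCP3 in none.

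Members that gained IHO1 were more often those with SYCP3 in the wild type. Of the 106 members with a wild-type SYCP3 peak, 83 (78.3%) had IHO1 in Mei4KO, against 63 of the 238 without (26.5%), a difference of 51.8 points (41.2 to 60.4). Within the lower and upper CTCF scores, the narrower and wider HORMAD1 peaks and the narrower and wider CTCF peaks, this difference stayed between 50.1 and 52.4 points. In Spo11KO the shares were 44.3 and 15.1% (29.2 points, 18.8 to 39.5) and in Prdm9KO 30.2 and 7.14% (23.0 points, 14.2 to 32.7). Sites with both proteins showed the same direction. Their shares with and without wild-type SYCP3 were 81.7 and 66.7% in Mei4KO (15.0 points, 4.13 to 25.6). They were 64.1 and 45.3% in Spo11KO (18.8 points, 6.42 to 30.5) and 56.5 and 23.1% in Prdm9KO (33.4 points, 21.4 to 44.0). At members, the split by a HORMAD1 peak of the same knockout gave smaller differences. Their intervals did not overlap those of the wild-type SYCP3 split in Mei4KO and Spo11KO and did overlap in Prdm9KO. Split by SYCP3 of the same knockout, the differences were 38.1 points in Mei4KO (24.8 to 48.8), 24.1 in Spo11KO (11.6 to 37.0) and 33.4 in Prdm9KO (16.5 to 51.3). Of these intervals, only that of Mei4KO did not overlap the HORMAD1 split. In Mei4KO IHO1 was listed at 41.4% of members with HORMAD1 and 44.0% of those without (-2.59 points, -13.1 to 7.90), so that 62 members had IHO1 and no HORMAD1 peak in that genotype. In Spo11KO the shares were 25.7 and 17.2% (8.53 points, -3.49 to 17.6). In Prdm9KO they were 19.9 and 7.19%, a called difference of 12.7 points (5.44 to 19.7). A higher CTCF score also went with IHO1 in Mei4KO, from 32.6% of the 86 lowest-scoring members to 54.7% of the 86 highest-scoring (22.1 points, 7.27 to 35.6). For Spo11KO the same groups had 15.1 and 30.2%, a called difference of 15.1 points (2.57 to 27.1). For Prdm9KO they had 10.5 and 15.1%, which was not called (4.65 points, -5.58 to 14.9). Members with the widest wild-type HORMAD1 peaks had IHO1 more often than those with the narrowest in Spo11KO, 32.6 against 16.3% (16.3 points, 3.42 to 28.5). The same was called in Prdm9KO, 20.9 against 8.14% (12.8 points, 2.19 to 23.4), and not in Mei4KO (12.8 points, -1.67 to 26.5).

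**Figure D5:**
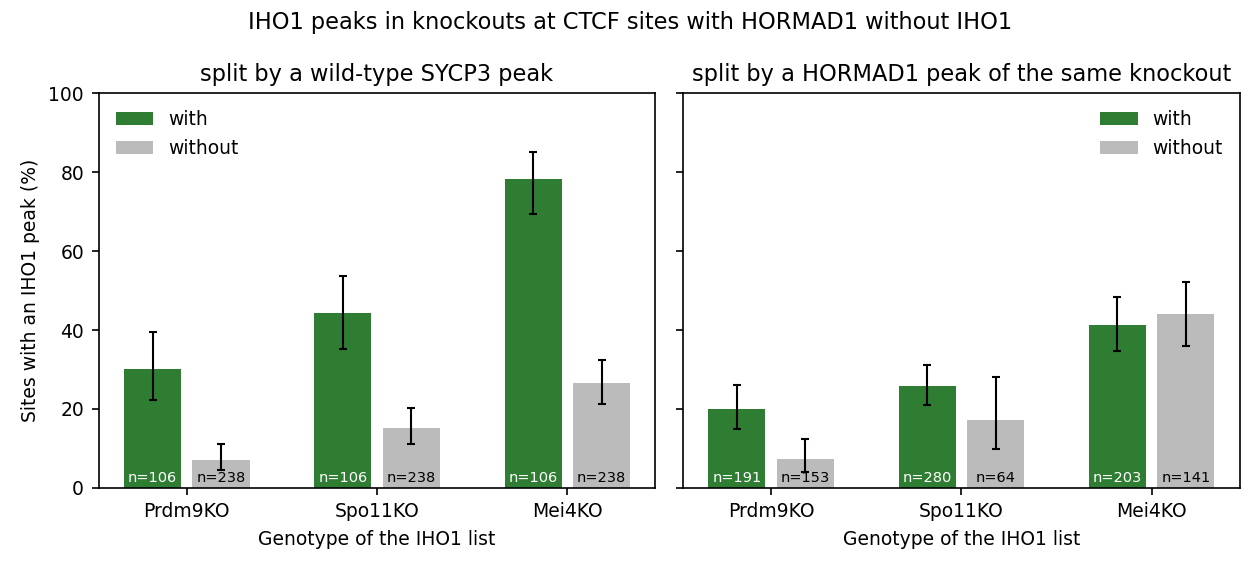
Share of IHO1-lacking HORMAD1 sites with an IHO1 peak (%, vertical axis) in Prdm9KO, Spo11KO and Mei4KO, split by a wild-type SYCP3 peak (left) and by a HORMAD1 peak of the same knockout (right). Bars are shares, lines are Wilson 95% intervals and n is the number of sites. In Mei4KO the shares were 78.3 and 26.5% with and without SYCP3, and 41.4 and 44.0% with and without HORMAD1.

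SYCP3, the axis filament protein, marked a smaller part of these sites than of sites with both HORMAD1 and IHO1. In the wild type 106 members (30.8%, interval 26.2 to 35.9%) had an SYCP3 peak, with a background of 1.24% of all CTCF sites, against 52.8% of sites with both proteins, a difference of -22.0 points (-29.7 to -14.0). Iho1KO had the highest share, 170 members (49.4%, 44.2 to 54.7%), with a background of 3.75%. Its list was also the longest, with 5380 SYCP3 peaks against 1911 in the wild type, and rests on 1 sample. Hormad1KO had 104 members (30.2%, 25.6 to 35.3%), with a background of 1.21%, from a list of 823 peaks. That share, in mice without the HORMAD1 that defined the sites, lay within the interval of the wild-type share. With the wider 50% of each list the shares were 3.78% in the wild type and 10.2% in Hormad1KO, with intervals that did not overlap. Each list was cut there at its own median width, 2791 bp in the wild type and 1846 bp in Hormad1KO. Those shares thus rest on unlike cuts and do not compare the genotypes. Spo11KO and Mei4KO had 64 members each (18.6%, 14.8 to 23.1%), with backgrounds of 1.46% and 1.09%, and 36 sites were common to them. Prdm9KO had 29 members (8.43%, 5.93 to 11.8%), with a background of 0.483%, from 607 peaks.

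Members were below the sites with both HORMAD1 and IHO1 in all 6 SYCP3 lists. This did not extend to the 169 sites with IHO1 and no HORMAD1. Their SYCP3 shares were below those of members in the wild type (24.9%), Spo11KO (15.4%), Mei4KO (16.0%), Iho1KO (36.7%) and Hormad1KO (17.8%). In Prdm9KO their share, 11.2%, was above. For members against sites with both proteins, all 6 differences were called. The called differences ran from -14.2 points in Prdm9KO to -22.8 points in Iho1KO. In the strong and wide sites with neither protein the SYCP3 share was at most 10.2%, in Iho1KO, and 2.25% in the wild type. Members with SYCP3 in the wild type had it more often in other genotypes too, in lists that share 1 subtracted control. In Hormad1KO it was listed at 67.9% of the 106 and 13.4% of the 238, and in Iho1KO at 84.0 and 34%. In no list did 146 members (42.4%) have SYCP3, while 10 had it in all 6. For SYCP3 the score of the CTCF peak gave no called gap between the 86 highest-scoring and 86 lowest-scoring members in any of the 6 lists. Members with the widest HORMAD1 peaks had SYCP3 more often than those with the narrowest in the wild type, 37.2 against 20.9% (16.3 points, 2.69 to 29.1). The same was called in Spo11KO, 26.7 against 10.5% (16.3 points, 4.64 to 27.6), and in Mei4KO, 23.3 against 11.6% (11.6 points, 0.204 to 22.9). It was not called in Prdm9KO, Iho1KO or Hormad1KO.

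MEI4 was too rare at CTCF sites away from hotspots for these counts to set the members apart from the background of all such sites. No member had a MEI4 peak in the wild type, Prdm9KO, Spo11KO or Iho1KO, where a count of 0 allows a share of up to 0.872% (3 counts of 344) and the Wilson interval reaches 1.10%. The backgrounds were 0.0294, 0.0163, 0.0294 and 0.0424% of all CTCF sites. In Hormad1KO, with a background of 0.0751%, 1 member had MEI4, at chr13:119836487-119837141 next to the gene AF067063. Of the sites with both HORMAD1 and IHO1, 5, 3, 4, 1 and 1 had a MEI4 peak in the wild type, Prdm9KO, Spo11KO, Iho1KO and Hormad1KO. The differences of -2.02 points in the wild type (-4.63 to -0.420) and -1.61 in Spo11KO (-4.07 to -0.134) were called. They rest on 5 and 4 sites and were not recomputed under other settings. With a 50% overlap the members' own MEI4 shares were 0.862% in the wild type and 1.44% in Spo11KO. A DMC1 hotspot of Hormad1KO touched 1 member, at chr2:62653095-62655464 near Ifih1, which encodes an RNA sensor, with a background of 0.0849%.

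The sites were spread over all 19 autosomes, at 2.97 members per 1000 CTCF sites on chromosome 17 (4 members) and up to 18.5 on chromosome 12 (23 members). Only 20 members had another member within 100 kb. By the RefSeq gene table, 127 members (36.9%, interval 32 to 42.1%) touched the body of a protein-coding gene. That share was 36.3% at sites with both proteins, 57.2% at sites with neither and 52.3% at the strong and wide sites with neither. The difference from sites with neither was -20.3 points (-25.3 to -15.1), and from the strong and wide ones -15.4 points (-21.8 to -8.80). Ends of protein-coding genes lay within 1 kb of 52 members (15.1%), against 15.3% at sites with both proteins, 14.3% at sites with neither and 32.5% at the strong and wide ones. The strong and wide sites are not matched to the members, and the part of score or width in these differences was not tested. Of gene clusters known for CTCF, the Hox and protocadherin clusters, 1 member lay in the protocadherin beta region. Imprinted genes were searched for by a short list: H19, Igf2, Peg3, Kcnq1ot1, Meg3, Dlk1, Grb10 and Rasgrf1. No member lay at these, and other imprinted genes were not searched for. None lay at axis and cohesin genes, and the sites with both proteins gave the same counts of 1, 0 and 0.

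The highest CTCF score of all members, 37.35, belonged to a narrow peak of 586 bp at chr14:124801578-124802163, 124 kb from Fgf14, a gene of the fibroblast growth factor family. Its pattern was unlike the others. HORMAD1 was listed there in the wild type and in no knockout, and it was the member with IHO1 in Hormad1KO, where a peak of 493 bp lay. SYCP3 was present in the wild type, Prdm9KO, Spo11KO, Mei4KO and Iho1KO and missing from Hormad1KO. Its peaks in all these lists measured 450 to 640 bp. The next score was 9.74, held by 2 sites. The site at chr5:116115016-116117516, near Ccdc60, had HORMAD1 in all 4 knockouts and neither IHO1 nor SYCP3 anywhere. The site at chr2:147176737-147180015, across Nkx2-2, a homeobox gene, had HORMAD1 in all 4, IHO1 in Mei4KO and SYCP3 in 5 lists. The site at chr5:106801565-106804787 (score 9.28) is the one with the Gm33327 promoter printed above, and its nearest protein-coding gene is Hfm1, which encodes a meiotic DNA helicase. HORMAD1 measured 2001 bp there in the wild type and 3327 bp in Mei4KO, where an IHO1 peak of 2311 bp appeared. The fifth, at chr13:45029829-45032445 near Dtnbp1 (8.68), had HORMAD1 in Spo11KO and Iho1KO only.

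A pair of members was found in 13 of the 20 lists not used by the rule, the most of any. These were chr14:87451269-87452687 in the body of Tdrd3, which encodes a Tudor-domain protein, and chr8:96150241-96154219, 262 kb from Got2. Each had HORMAD1 in all 4 knockouts, IHO1 in Prdm9KO, Spo11KO and Mei4KO, and SYCP3 in all 6 genotypes. At the Tdrd3 site HORMAD1 widths were 1412 bp in the wild type, 915 in Prdm9KO, 881 in Spo11KO, 1466 in Mei4KO and 1253 in Iho1KO. At the Got2 site every listed peak was broader, from 3375 to 5371 bp. The site near Pde4dip, at chr3:97893854-97895415, was in 12 lists with a CTCF score of only 2.63, and its HORMAD1 peak measured 1520 bp in the wild type and 4619 bp in Mei4KO. Sites in Itpr2 (chr6:146408799-146412166) and near Blcap (chr2:157603404-157607590) were in 11 lists each.

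Of the 22 members with IHO1 in Prdm9KO, Spo11KO and Mei4KO together, the highest CTCF score, 7.55, was at chr14:72371010-72372979 near Gm9195. That site had HORMAD1 in all 4 knockouts and no SYCP3 in any genotype. Near Slc16a12, at chr19:34665570-34667057, IHO1 came with SYCP3 in the wild type, Iho1KO and Hormad1KO. Near Ccn5 (chr2:163836464-163841552) and near Mras (chr9:99375266-99378852) IHO1 was listed in Mei4KO, at 2356 and 1736 bp, without a HORMAD1 peak in that genotype. At the other extreme, the widest wild-type HORMAD1 peak, 17580 bp, covered a weak CTCF site (score 0.92) at chr12:4861001-4864096 in Mfsd2b, a gene for a lipid transporter. That peak was also listed in Mei4KO, at 22995 bp, and none of the remaining lists outside the rule touched the site.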

How the data were processed

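The deposited files are 24 peak lists, 1 per antibody and genotype, attached to replicate 1 of each group. Whether replicates were pooled is not stated. Bowtie2, MACS2 and the build mm10 are named in the submitters' processing notes, without versions. Each protein's signal in its own knockout was subtracted by the authors, as the design text records. The 21 protein lists hold positions only. The CTCF list has a deposited score per peak and the DMC1 lists a deposited signal value, which was not used. Depth is unknown. Intervals were compared by position in Python 3.11.15 with numpy 2.4.6, pandas 2.3.3 and scipy 1.17.1, with an overlap of 1 bp. Scripts were tested on simulated intervals. Medians have exact order-statistic 95% intervals. Nothing was adjusted for the number of intervals: 10 of the 14 differences of HORMAD1, IHO1 and SYCP3 shares between the 2 HORMAD1 classes were called, 3 of them for IHO1, on which the classes were split. CTCF in Prdm9KO and Spo11KO was not used here.

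Sites were named by rule: the 5 highest CTCF scores, the 5 in most lists, the 5 with IHO1 in most knockouts (ties by score), the widest HORMAD1 peak and those nearest the thresholds. The sites alone in a list were added after their values were seen. Genes are the protein-coding ones overlapped or nearest, from RefSeq (GRCm38.p6), and sequences are RefSeq's. With no genome at hand, CTCF sites outside promoters were not searched. The members and lists were chosen with earlier results of these data known.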

Additional observations from a re-analysis of the deposited data

How the results depend on the processing

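No paired analysis was possible because each group has 1 peak list, and no replicate could be left out. The alternatives were a 50% overlap, a 1 kb window at each peak, the wider 50% of each list, the higher 50% of CTCF scores, IHO1 or hotspots beyond 5 kb, 1 site per HORMAD1 peak, subsets by HORMAD1 width and CTCF score, and, chosen after seeing the data, the central 1 kb of CTCF peaks. Of the differences between members and sites with both HORMAD1 and IHO1 under these settings, 149 kept direction and call and 3 (IHO1 in Hormad1KO) were exactly 0. A further 12 changed sign, among them HORMAD1 in Iho1KO with the wider 50% of each list, which also became called. Another 3 became called without a change of sign, and 1 was no longer called. The cause of the other changes was not tested, apart from the wider 50% of each list, which removes peaks by construction. Each list was cut at its own median width, so shares under that setting are not comparable between genotypes. That setting gave HORMAD1 shares of 22.4% in Prdm9KO, 38.7% in Spo11KO, 40.7% in Mei4KO and 47.4% in Iho1KO. It gave IHO1 shares of 6.10% in Prdm9KO, 11.9% in Spo11KO, 16.9% in Mei4KO and 0% in Hormad1KO. SYCP3 shares were 3.78% in the wild type, 2.62% in Prdm9KO, 10.2% in Spo11KO, Mei4KO and Hormad1KO and 28.2% in Iho1KO, and MEI4 in Hormad1KO was 0%. There the HORMAD1 differences became -18.6 points in Spo11KO, now called, -1.24 in Mei4KO and -11.9 in Iho1KO, the latter reversed and called.

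With the higher 50% of CTCF scores the HORMAD1 shares were 85.4% in Spo11KO and 88.2% in Iho1KO, and MEI4 in Hormad1KO was 0%. At 50% overlap MEI4 in Spo11KO was 1.44%. The HORMAD1 difference in Mei4KO, near 0 throughout, turned to -0.347 points (1 kb window), -0.174 (hotspots beyond 5 kb), -2.68 (narrower HORMAD1), -1.42 (wider HORMAD1) and -2.03 (higher scores). The one in Iho1KO turned to -2.60 (narrower), -0.393 (wider) and -4.31 (lower scores), and was called at 6.93 with higher scores. IHO1 in Hormad1KO, 1 site in each class, turned to 0.179 (50% overlap) and 0.318 (hotspots beyond 5 kb). In Spo11KO the HORMAD1 difference was called among wider HORMAD1 peaks (-11.9). The SYCP3 difference in Prdm9KO was not called among narrower ones (-3.94).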
